A study of Mus musculus with 6 samples.

Results

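The genes described here drive and mark cell division: 35 genes of DNA replication and mitosis, each found once by its symbol among the 20161 genes of the deposited normalized table. They were chosen by name, and 16 act at the G1/S boundary or in S phase and 19 in G2 or mitosis. They were measured by RNA sequencing in first molar tooth germs of C57BL/6 mice at postnatal day 7. There were 3 libraries from Gpr115-/- mice (Gpr115-KO) and 3 from their wild-type (WT) littermates. Gpr115, listed under its newer symbol Adgrf4, is a receptor of the adhesion G protein-coupled class, and the study asked what its loss changes in the tooth germ. Which part of the gene was deleted, and whether a library holds 1 animal or pooled germs, is not given in the labels, so each p-value reflects only how much these libraries vary.

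As a cell enters S phase, cyclin E with its kinase Cdk2 acts together with E2F factors, which switch on the genes for DNA synthesis. Loading of the Mcm helicase ring onto origins precedes replication, and cyclin A and cyclin B with Cdk1 then take the cell into mitosis, where Aurora and Polo kinases build the spindle. In a molar of this age ameloblasts and odontoblasts have left the cell cycle. Division goes on in the root-forming epithelium, the pulp and follicle mesenchyme and in blood and vessel cells. The libraries are of whole tissue, so fewer dividing cells and less RNA per cell cannot be told apart.

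Promoter sequence, which the choice of members did not use, differed between the phases. The cell cycle homology region, the element read by the Lin54 subunit of the DREAM and MuvB complexes, was searched as TTTGAA or TTCGAA. The E2F site was searched as TTTGGCGC or TTTCCCGC and the NF-Y box as CCAAT, each on both strands. None of these motifs contains another. RefSeq promoters of GRCm38.p6, from 250 bases before to 50 bases after the start site, matched 28 of the 35 members by symbol, all but Ccna2, Ccne2, Mcm4, Gins2, Aurkb, Kif20a and Tpx2. The homology region was present in 12 of 15 mitosis members (80%), in 2 of 13 S-phase members (15.4%) and in 20.2% of 17492 protein-coding genes. The 2 exact E2F strings showed the opposite pattern, in 0 of 15 mitosis members, 6 of 13 S-phase members (46.2%) and 2.31% of protein-coding genes. Other forms of the E2F site were not searched, so the 0 does not show that mitosis promoters lack E2F sites. The NF-Y box was in 14 of 15 mitosis members (93.3%), 9 of 13 S-phase members (69.2%) and 42.3% of protein-coding genes. All 12 mitosis members with a homology region also held an NF-Y box in the same window, and so did the 2 S-phase members with one. The pair was thus in 80% of mitosis members, 15.4% of S-phase members and 8.22% of protein-coding genes.

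The 150 bases before the start site are shown for 5 mitosis members. The first 4 are examples that hold both the homology region and the NF-Y box there, and Plk1 had the smallest p of all members. Capitals mark the homology region (TTTGAA, or TTCAAA when it is on the other strand) and the NF-Y box (CCAAT or ATTGG).
Cdk1 (chr10:69352913-69353062, minus strand): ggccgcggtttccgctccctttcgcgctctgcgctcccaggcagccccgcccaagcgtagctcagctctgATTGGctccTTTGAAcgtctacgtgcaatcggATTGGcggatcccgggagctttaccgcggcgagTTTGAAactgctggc
Cdc20 (chr4:118437344-118437493, minus strand): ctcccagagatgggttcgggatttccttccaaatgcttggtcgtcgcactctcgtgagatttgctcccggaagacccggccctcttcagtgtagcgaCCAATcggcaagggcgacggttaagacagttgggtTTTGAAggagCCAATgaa
Kif11 (chr19:37376232-37376381, plus strand): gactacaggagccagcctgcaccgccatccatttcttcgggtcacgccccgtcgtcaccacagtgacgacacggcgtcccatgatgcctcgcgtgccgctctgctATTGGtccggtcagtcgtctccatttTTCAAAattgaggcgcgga
Mki67 (chr7:135716380-135716529, minus strand): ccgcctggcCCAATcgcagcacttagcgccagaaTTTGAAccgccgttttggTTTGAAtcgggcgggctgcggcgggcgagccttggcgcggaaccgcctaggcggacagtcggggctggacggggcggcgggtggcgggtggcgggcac
Plk1 (chr7:122159285-122159434, plus strand): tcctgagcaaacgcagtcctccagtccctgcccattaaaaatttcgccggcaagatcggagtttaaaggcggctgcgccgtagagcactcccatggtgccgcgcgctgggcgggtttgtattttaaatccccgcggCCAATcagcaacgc
In Cdk1, which encodes the mitotic kinase, homology regions began at −71 and −15 from the start site, with NF-Y boxes beginning at −80 and −48. In Cdc20, the activator of the anaphase-promoting complex, the homology region at −18 lay between NF-Y boxes at −53 and −8. Kif11, a spindle motor, carried its homology region at −19 on the opposite strand. Plk1 had an NF-Y box at −14, and its homology region began at 30 bases after the start site, outside the stretch shown.

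The same stretch is shown for 5 S-phase members, 4 because they hold the E2F site and Tyms because it had the lowest fold change of the S-phase members. Capitals mark the E2F site (TTTGGCGC, or GCGCCAAA or GCGGGAAA on the other strand) and the NF-Y box.
Mcm6 (chr1:128359706-128359855, minus strand): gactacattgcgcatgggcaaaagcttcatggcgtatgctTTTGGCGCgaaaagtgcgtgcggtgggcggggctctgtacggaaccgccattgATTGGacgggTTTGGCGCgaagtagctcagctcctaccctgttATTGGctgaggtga
Mcm5 (chr8:75109359-75109508, plus strand): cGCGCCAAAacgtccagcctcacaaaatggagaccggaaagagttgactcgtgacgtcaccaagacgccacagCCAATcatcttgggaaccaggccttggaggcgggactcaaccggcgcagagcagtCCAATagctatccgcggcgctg
Cdk2 (chr10:128705052-128705201, minus strand): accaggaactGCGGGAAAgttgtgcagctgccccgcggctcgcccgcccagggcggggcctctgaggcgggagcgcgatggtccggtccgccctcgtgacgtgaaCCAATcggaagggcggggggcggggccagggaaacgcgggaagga
Cdc6 (chr11:98908001-98908150, plus strand): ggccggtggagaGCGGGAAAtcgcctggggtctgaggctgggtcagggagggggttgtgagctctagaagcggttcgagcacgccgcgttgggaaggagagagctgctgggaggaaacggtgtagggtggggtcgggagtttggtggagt
Tyms (chr5:30073626-30073775, minus strand): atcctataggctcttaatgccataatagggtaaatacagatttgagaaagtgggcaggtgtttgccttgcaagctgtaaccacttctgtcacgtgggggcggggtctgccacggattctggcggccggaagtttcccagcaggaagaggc
Mcm6, a subunit of the replicative helicase, held 2 E2F sites, at −110 and −47. Mcm5, Cdk2 and Cdc6 each held 1, at −149, −140 and −138. None of these letters occurs in the Tyms window.

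**Figure D1:**
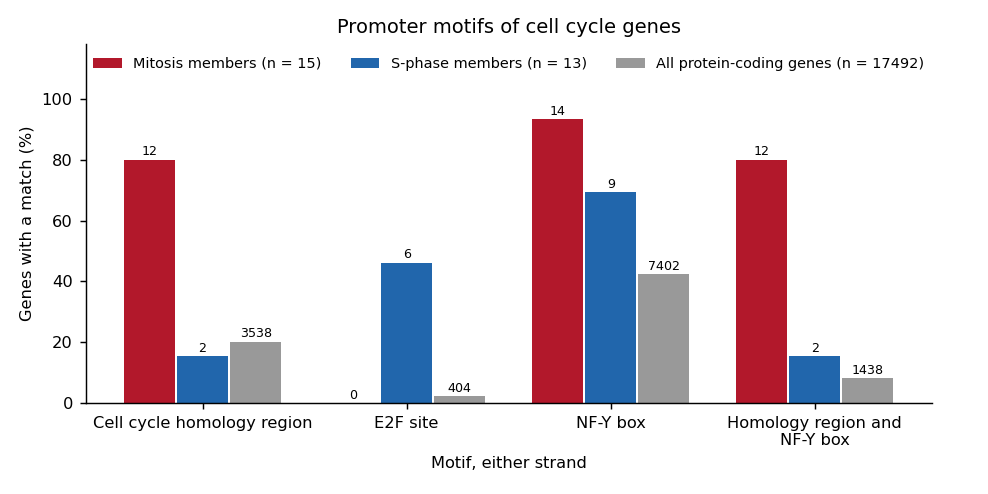
Share of genes (y axis, percent) whose promoter window holds each motif on either strand, for mitosis members (n = 15), S-phase members (n = 13) and all protein-coding genes (n = 17492), with the number of genes over each bar. The homology region is most frequent in the mitosis members (12 of 15) and the E2F site, in the exact strings searched, in the S-phase members (6 of 13).

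The libraries held 8317302 to 11122821 gene counts. Adgrf4 had 39.2, 20.6 and 27.5 CPM in Gpr115-KO, against 67.1, 62.5 and 67.5 CPM in WT, where CPM are read counts relative to the TMM-scaled library size. All Gpr115-KO values lay below all WT values, with a log2 fold change of −1.18 (edgeR SE 0.21, adjusted p = 0.0887). Markers of the tooth were present in all libraries: 7 ameloblast genes summed to 96407 to 203616 CPM in Gpr115-KO and 113062 to 146101 CPM in WT, and none of them was at 0. Some libraries stood apart in other tissue markers. Gpr115-KO replicate 2 had a sum of 285 CPM over 12 skeletal muscle genes, while the other 5 libraries had 29.4 to 75.5 CPM. Gpr115-KO replicate 3 had the lowest sum of 11 dental epithelium genes, 1262 CPM, while the other 5 had 1887 to 2511 CPM.

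No division gene passed the test between genotypes, and the fitted fold changes lay on both sides of 0. All 35 members passed the count filter, with 14 to 1198 counts in a library. With a Benjamini-Hochberg adjusted p under 0.05 as the threshold, edgeR's quasi-likelihood test called 0 members higher and 0 lower, where it called 0.15% of the 16011 genes tested (0.0375% higher and 0.112% lower). At an unadjusted p under 0.05 there were 3 members (8.57%), against 12.3% of all genes. All 3 were lower, a direction that held 7.48% of all genes. DESeq2 also called 0 members, where it called 1.69% of genes, limma-voom called 0, against 0.112%, and edgeR with no count filter called 0, against 1.71%. Of the members 16 had a fitted fold change above 0 and 19 below 0, where 51.3% of all genes were above 0, and the median log2 fold change was −0.0065, against 0.013 over all genes. The genotypes showed no overlap in 1 member, Plk1 (2.86%), against 17.5% of all genes, or 8.99% with Gpr115-KO as the lower.

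These are limits on size and not proof of equality. The 95% interval of the log2 fold change lay wholly between −1 and 1 for 27 of 35 members, so a doubling or a loss to 50% lay outside it, and it included 0 for 32. Of the 24 genes called in all, 18 lie on chromosome 17, as Adgrf4 does, and no member lies there.

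**Figure D2:**
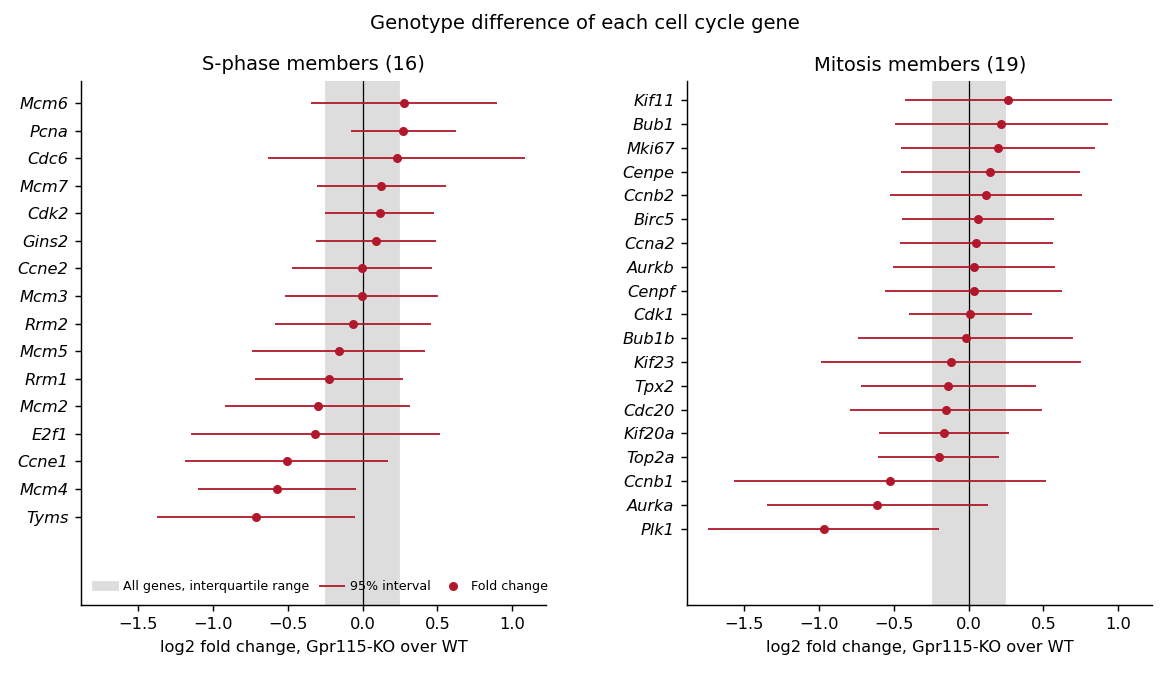
Log2 fold change of each member, Gpr115-KO over WT (x axis), with its 95% interval from the edgeR fit, for S-phase members at left and mitosis members at right, ordered by fold change. The grey band is the interquartile range over all 16011 tested genes. Only the intervals of Plk1, Tyms and Mcm4 exclude 0, and no member passed the threshold over all genes.

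Genes of S-phase entry were spread on either side of 0. Ccne1, encoding cyclin E1 (chr7:38097984-38107534), had 2.96, 3.10 and 3.93 CPM in Gpr115-KO, against 5.26, 5.46 and 3.56 CPM in WT. The highest Gpr115-KO library exceeded the lowest WT library, and the log2 fold change was −0.51 (edgeR SE 0.31, adjusted p = 0.532). Its sister gene Ccne2 averaged 46.4 ± 10.5 CPM in Gpr115-KO and 46.5 ± 10.1 CPM in WT (SD, n = 3 each), though 17.4% of its exonic length lies opposite exons of Ints8 and these reads carry no strand. Cdk2, their kinase, had a log2 fold change of 0.11 (SE 0.17). E2f1, the transcription factor that drives S-phase genes, was scarce, at 1.46 to 2.73 CPM in Gpr115-KO and 2.39 to 2.90 CPM in WT.

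Helicase genes had fold changes on either side of 0. Mcm4 (chr16:15623897-15637400), a subunit of the helicase core, had 16.98, 11.4 and 18.6 CPM in Gpr115-KO, against 28.7, 23.5 and 17.6 CPM in WT. WT replicate 3 fell within the Gpr115-KO range. The log2 fold change was −0.57 (SE 0.24), with an unadjusted p of 0.0368 and an adjusted p of 0.367 in edgeR. Mcm2, another subunit, had 14.2, 8.23 and 15.4 CPM in Gpr115-KO, against 20.4, 11.9 and 14.2 CPM in WT, so that the libraries overlapped (log2 fold change −0.30, SE 0.28). Mcm6 had the highest fold change of the S-phase members, with 13.6, 9.51 and 11.9 CPM in Gpr115-KO against 11.2, 11.7 and 5.89 CPM in WT. That value, 0.28 (SE 0.28), was no larger than its own error, and the low library was WT replicate 3. Mcm3, Mcm5 and Mcm7 had −0.0065, −0.16 and 0.12. The loader Cdc6 had 0.23 (SE 0.39). Gins2, part of the GINS complex of the active helicase, had 0.091, but 67.3% of its exonic length lies opposite exons of Gse1, so its counts can include reads of that gene.

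Among the genes of the replication fork and of nucleotide supply, Tyms and Pcna lay at opposite ends. Tyms (chr5:30058202-30073617), thymidylate synthase, had 64.6, 33.6 and 45.3 CPM in Gpr115-KO, against 109, 72.1 and 53.8 CPM in WT. The genotypes overlapped between Gpr115-KO replicate 1 and WT replicate 3, and WT replicate 1 stood highest. The log2 fold change was −0.71 (SE 0.29), with an unadjusted p of 0.0377 and an adjusted p of 0.369 in edgeR, and it was −0.40 without WT replicate 1 (edgeR adjusted p = 0.887). Some annotated Tyms transcripts share stretches of at least 95% identity with 28 other genes, among them the pseudogene Tyms-ps. Pcna (chr2:132249162-132253314), the sliding clamp of DNA polymerase, had 30.2, 36.8 and 32.3 CPM in Gpr115-KO, against 25.2, 26.6 and 30.4 CPM in WT. The genotypes overlapped, since Gpr115-KO replicate 1 lay just below WT replicate 3, and the log2 fold change was 0.27 (edgeR SE 0.16, adjusted p = 0.518). Reads of Pcna can also fit the copy Pcna-ps2, which is 99.2% identical over 781 nt. The ribonucleotide reductase subunits Rrm1 and Rrm2 had −0.22 (SE 0.22) and −0.066 (SE 0.24).

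**Figure D3:**
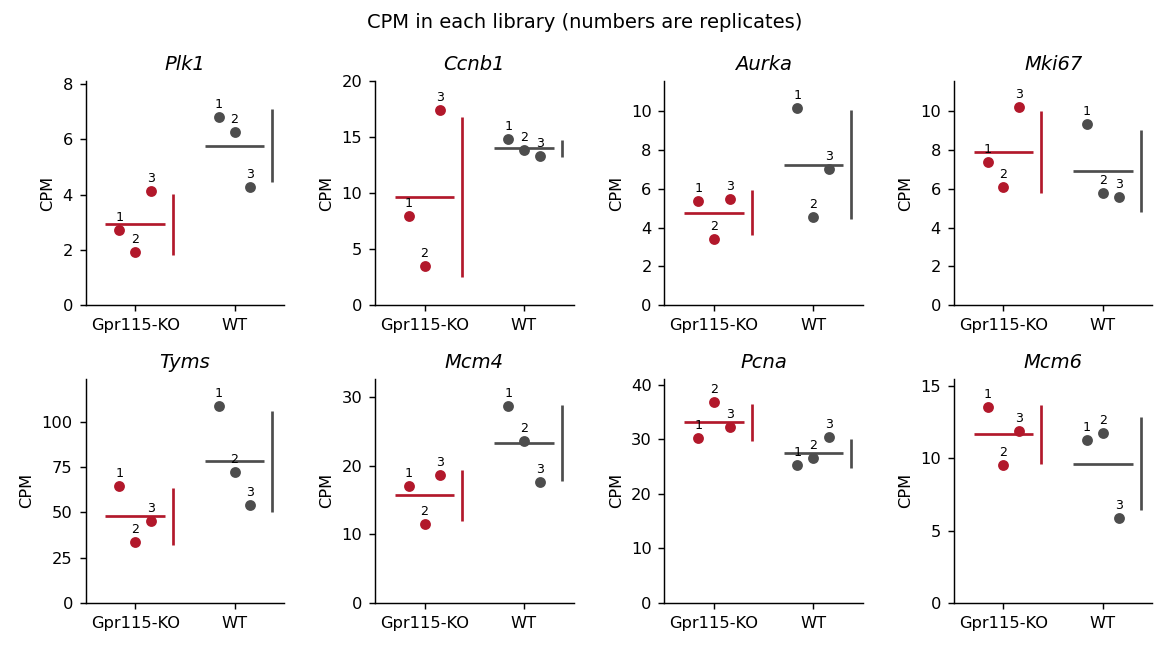
CPM (y axis, from 0) in each library for 8 members, with Gpr115-KO at left and WT at right in each panel. Points are libraries numbered by replicate, horizontal lines the means and vertical lines 1 SD on either side (n = 3). Plk1 alone shows no overlap, with 4.12 CPM as the highest Gpr115-KO value and 4.27 CPM as the lowest WT value.

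Of the cyclins that lead into mitosis, Ccnb1 had the widest spread in Gpr115-KO. The SD of the CPM in Gpr115-KO and WT was 7.12 and 0.79 for Ccnb1, 2.72 and 2.31 for Ccnb2 and 3.91 and 1.61 for Ccna2 (n = 3 each). Over all tested genes, 62.3% had a larger SD of the log2 value in Gpr115-KO than in WT. Ccnb1, encoding cyclin B1 (chr13:100778650-100786570), had 7.98, 3.53 and 17.5 CPM in Gpr115-KO, against 14.9, 13.9 and 13.3 CPM in WT. The WT libraries lay close together, while in Gpr115-KO replicate 2 was the lowest and replicate 3 the highest of all 6. The log2 fold change was −0.53 (edgeR SE 0.46, adjusted p = 0.685), while leaving out Gpr115-KO replicate 3 gave −1.29 (edgeR adjusted p = 0.213) and leaving out replicate 2 gave −0.13. Ccnb1-ps and Gm12856, copies of 99.2% and 98.1% identity, held at most 7 counts in any library. Cdk1, the partner of cyclin B, had 18.1, 15.6 and 22.3 CPM in Gpr115-KO, against 18.9, 19.2 and 17.6 CPM in WT. The order of the Gpr115-KO libraries was the same as for Ccnb1, and the log2 fold change was 0.012 (SE 0.19). Ccnb2 and Ccna2, encoding cyclins B2 and A2, had 0.11 (SE 0.29) and 0.050 (SE 0.23).

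Plk1 had the lowest fold change and the smallest p of all members. Plk1 (chr7:122159439-122169873), the Polo kinase that acts on centrosomes and kinetochores, had 2.73, 1.92 and 4.12 CPM in Gpr115-KO, against 6.80, 6.25 and 4.27 CPM in WT. All Gpr115-KO libraries lay below all WT libraries, by a narrow gap. The counts were low, 24, 18 and 45 in Gpr115-KO and 75, 55 and 42 in WT. The log2 fold change was −0.97 (SE 0.35), with an unadjusted p of 0.0182 and an adjusted p of 0.305 in edgeR. Over 17 alternatives it ran from −1.31 to −0.74, and its lowest adjusted p was 0.177, with no count filter.

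Other kinases and checkpoint genes overlapped between genotypes. Aurka, the Aurora kinase of the spindle poles, had 5.36, 3.42 and 5.49 CPM in Gpr115-KO, against 10.2, 4.55 and 7.01 CPM in WT, with a log2 fold change of −0.61 (edgeR SE 0.34, adjusted p = 0.487). WT replicate 2 lay below 2 of the Gpr115-KO libraries. Aurkb and Birc5, which sit together in the chromosomal passenger complex, had 0.037 (SE 0.25) and 0.061 (SE 0.23). The spindle checkpoint kinases Bub1 and Bub1b had 0.22 (SE 0.32) and −0.020 (SE 0.33), and Cdc20 had −0.15 (SE 0.29).

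Motors and kinetochore genes were centred near 0. Kif11, which pushes the spindle poles apart, had the highest fold change of the mitosis members, with 10.03, 4.92 and 8.69 CPM in Gpr115-KO against 8.25, 6.48 and 4.88 CPM in WT (log2 fold change 0.27, SE 0.31). Kif23, a motor of cytokinesis, had −0.12 (SE 0.39), the widest error in this group. Kif20a, another cytokinesis motor, had −0.16 (SE 0.20), though 29.3% of its exonic length lies opposite exons of Cdc23. The spindle assembly factor Tpx2 had −0.14 (SE 0.27), and the kinetochore genes Cenpe and Cenpf had 0.15 (SE 0.27) and 0.034 (SE 0.27).

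The general marks of proliferation overlapped between genotypes. Mki67, encoding the Ki-67 protein that coats mitotic chromosomes, had 7.41, 6.09 and 10.2 CPM in Gpr115-KO, against 9.34, 5.80 and 5.59 CPM in WT. Top2a, the topoisomerase that untangles sister chromatids, had 25.4, 19.02 and 26.5 CPM in Gpr115-KO, against 30.5, 26.8 and 24.3 CPM in WT. The log2 fold change was 0.19 (SE 0.29) for Mki67 and −0.20 (SE 0.18) for Top2a, and both intervals include 0.

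Per exonic length, S-phase members stood higher than mitosis members in every library. The median over the S-phase members was 4.58, 3.23 and 4.39 CPM per kb in Gpr115-KO and 4.78, 4.06 and 3.93 CPM per kb in WT. That over the mitosis members was 1.89, 1.35 and 2.17 CPM per kb in Gpr115-KO and 2.52, 2.01 and 1.94 CPM per kb in WT. The 4 highest genes were the same in both genotypes. In Gpr115-KO they were Pcna at 13.8 ± 1.40, Ccne2 at 13.3 ± 2.99, Rrm2 at 10.9 ± 3.94 and Tyms at 7.85 ± 2.57 CPM per kb (SD, n = 3). In WT they were Ccne2 at 13.3 ± 2.90, Tyms at 12.8 ± 4.59, Rrm2 at 11.4 ± 1.30 and Pcna at 11.4 ± 1.12 CPM per kb (SD, n = 3). In both genotypes neighbours among these 4 differed by less than the larger of their SDs. Mki67 and Cdc6 closed the WT order, at 0.69 ± 0.21 and 0.41 ± 0.14 CPM per kb (SD, n = 3), and Cdc6 was also last in Gpr115-KO.

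The members varied between libraries in a pattern that crossed the genotypes. Each gene's log2 of CPM plus 0.5 was set against its mean over the 6 libraries. In Gpr115-KO replicate 3 and in WT replicate 1, 17 and 16 of the 19 mitosis members lay above that mean, and in Gpr115-KO replicate 2 only 2 did. The median deviation of the mitosis members was −0.077, −0.26 and 0.30 in Gpr115-KO replicates 1 to 3, against 0.22, 0.0086 and −0.080 in WT replicates 1 to 3. That of the S-phase members was 0.083, −0.32 and 0.14 in Gpr115-KO and 0.25, −0.025 and −0.025 in WT. Both phases were thus lowest in Gpr115-KO replicate 2, and the genotypes overlapped in both. Gpr115-KO replicate 2 held the lowest value of 16 of the 35 members, where it held the lowest of 24.9% of all tested genes. Gpr115-KO replicate 3 held the highest value of 13 members, 10 of them mitosis members, where it held the highest of 16.4% of all tested genes. WT replicate 1 held the highest of 12 members, 7 of them S-phase members, against 20.2% of all tested genes. Over the 3 libraries of a genotype the SD of the log2 value was larger in Gpr115-KO than in WT for 25 of 35 members (71.4%), against 62.3% of all tested genes.

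**Figure D4:**
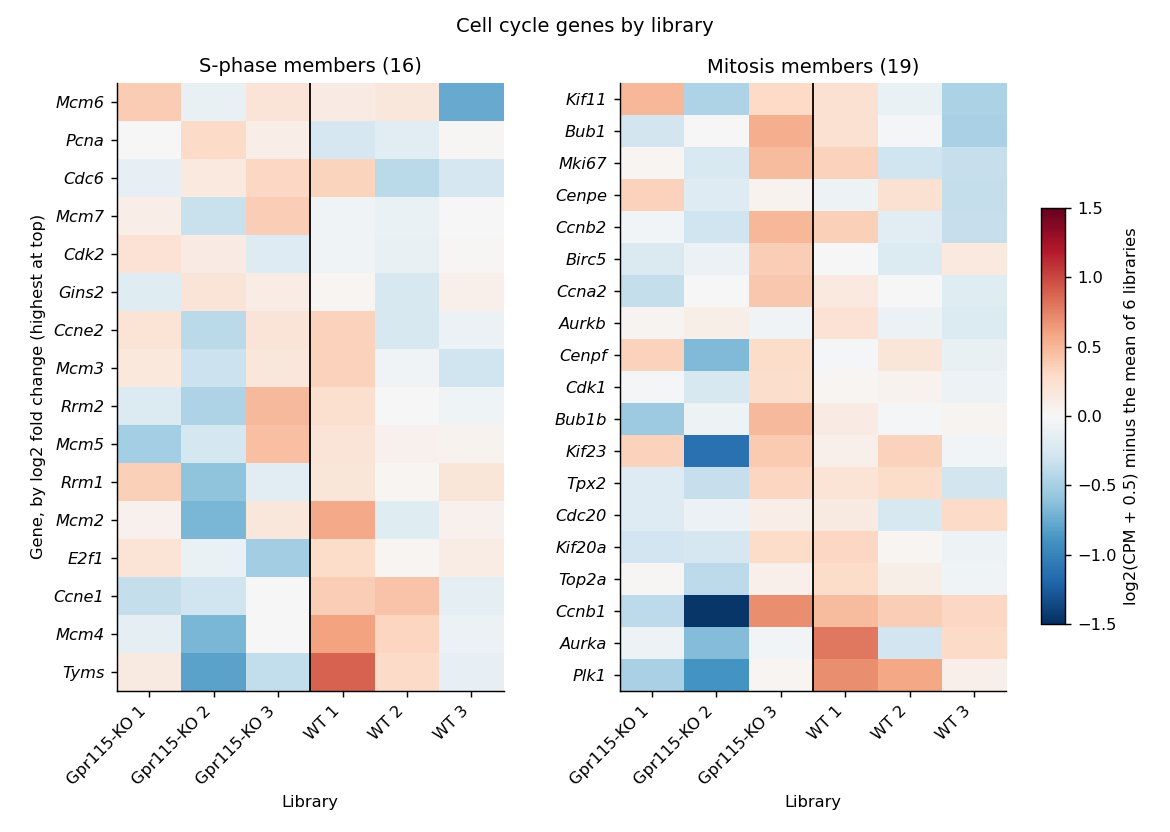
Each cell is a gene's log2(CPM + 0.5) in 1 library minus its mean over 6 libraries, with Gpr115-KO libraries left of the vertical line and WT libraries right of it. The column of Gpr115-KO replicate 2 is mostly blue and those of Gpr115-KO replicate 3 and WT replicate 1 mostly red, in both phases. Among the 16 S-phase members, 10 lie above the mean in Gpr115-KO replicate 3 and also in Gpr115-KO replicate 1.

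Genes of the same phases that are no members followed the same libraries. Of 51 tested other mitosis genes, 18, 12 and 40 lay above their mean in Gpr115-KO replicates 1 to 3, against 43, 27 and 18 in WT replicates 1 to 3. Of 48 other S-phase genes, 21, 17 and 30 lay above it in Gpr115-KO, against 31, 25 and 27 in WT. Tissue markers differed between these libraries too. The sum of 10 pulp and follicle mesenchyme genes was 560, 645 and 787 CPM in Gpr115-KO and 562, 645 and 558 CPM in WT, so it was highest where the mitosis members were highest in Gpr115-KO, but not in WT. Erythroid genes, 9 in the list, summed to 308, 398 and 161.3 CPM in Gpr115-KO and to 140, 143 and 161.2 CPM in WT. Summed over 16 leukocyte genes the level was 114, 131 and 141 CPM in Gpr115-KO and 93.4, 108 and 98.9 CPM in WT. In both blood lists every Gpr115-KO sum thus lay above every WT sum, for the erythroid genes by a narrow gap. Of the tested genes, 6 of 7 erythroid and 7 of 12 leukocyte genes were higher at an unadjusted edgeR p under 0.05. That direction held 4.85% of all genes at that p, and 0 and 2 genes of these lists had a fold change below 0. By adjusted p edgeR called 0 in both lists, while DESeq2 called 3 and 1 higher. The 12 keratinizing epithelium genes gave 291, 39.2 and 54.0 CPM in Gpr115-KO and 148, 38.4 and 122 CPM in WT. Endothelial genes, 7 in the list, summed to 62.3, 52.6 and 69.8 CPM in Gpr115-KO and 74.3, 64.2 and 62.6 CPM in WT, the lowest again in Gpr115-KO replicate 2. The 6 odontoblast genes summed to 39234 to 68352 CPM in Gpr115-KO and 35213 to 78042 CPM in WT. At most 2 genes of any marker list were at 0 in a library. Across all genes the Spearman correlation of the deviation with exonic length was −0.073, −0.25 and −0.050 in Gpr115-KO and 0.24, 0.20 and 0.0016 in WT over 15973 genes of the same libraries. Over the 35 members alone it was 0.51, −0.17 and 0.055 in Gpr115-KO and −0.25, 0.15 and −0.26 in WT. The part of cell makeup and length in the library pattern was not tested.

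**Figure D5:**
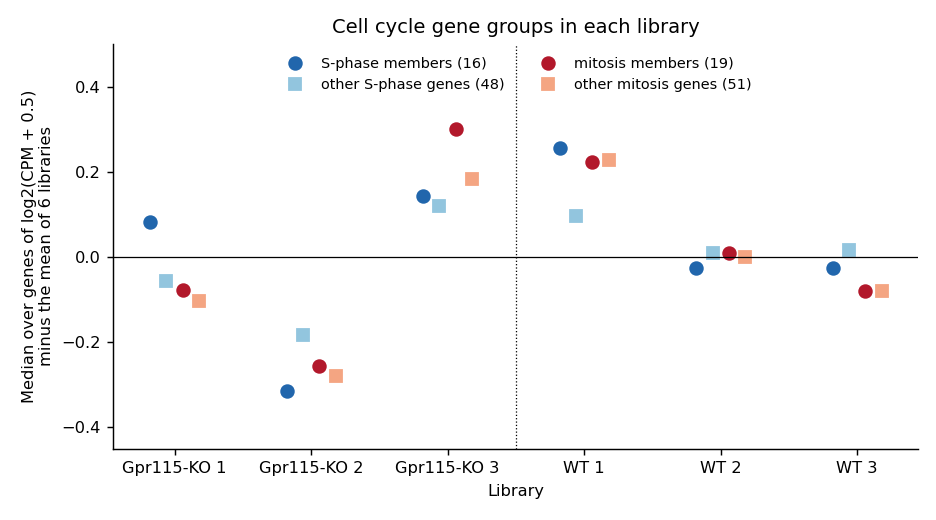
Median over genes of log2(CPM + 0.5) minus the mean of 6 libraries (y axis) for each library (x axis), Gpr115-KO left and WT right of the dotted line. Circles are the members and squares the other genes of each phase. All 4 groups are lowest in Gpr115-KO replicate 2 and above 0 in Gpr115-KO replicate 3 and WT replicate 1.

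The fold changes of both phases were centred near 0. The median log2 fold change was −0.036 for the S-phase members and 0.012 for the mitosis members, a difference of 0.048. The median deviation of the mitosis members minus that of the S-phase members was −0.16, 0.059 and 0.16 in Gpr115-KO and −0.032, 0.033 and −0.055 in WT. It reached furthest from 0 in Gpr115-KO replicates 1 and 3, in opposite directions, and the genotypes overlapped. The difference of the median log2 fold changes was −0.076 without Gpr115-KO replicate 3 and −0.047 without WT replicate 1. With the trend of each library on gene length removed, the medians were −0.046 for the S-phase and 0.0092 for the mitosis members.

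None of the tested genes in the other cell cycle lists was called either. Of the 48 other S-phase genes and the 51 tested of 53 other mitosis genes, edgeR called 0, with 5 and 2 at an unadjusted p under 0.05, all lower, where 7.48% of all genes were lower at that p. DESeq2 and limma-voom also called 0 in both lists. Their median log2 fold changes were −0.074 and −0.13. The median of the other mitosis genes was 7.6e-05 without Gpr115-KO replicate 2, −0.25 without Gpr115-KO replicate 3, −0.018 without WT replicate 1 and −0.21 without WT replicate 3. Pole, the leading-strand DNA polymerase, had 1.60, 2.03 and 2.38 CPM in Gpr115-KO, against 3.90, 4.21 and 2.85 CPM in WT, with no overlap (log2 fold change −0.86, edgeR SE 0.35, adjusted p = 0.356). Hells, a chromatin remodeller, had −0.45 (SE 0.19), also without overlap. Libraries did not overlap in 9 of the 48 other S-phase genes, where 17.5% of all genes showed none. Among the mitosis genes Cdca2, a chromosome-bound phosphatase adaptor, had −0.83 (SE 0.26), and Cit, the citron kinase of cytokinesis, had −0.62 (SE 0.26), with edgeR adjusted p of 0.270 and 0.360.

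Upstream of S phase, 0 of 20 transcription factors, 0 of 8 G1 cyclins and kinases and 0 of 6 tested inhibitors passed edgeR's threshold. At an unadjusted edgeR p under 0.05 there were 1, 2 and 2, where 12.3% of all genes were. DESeq2 and limma-voom called 0 as well, though DESeq2 gave an adjusted p for only 18 of the 20 transcription factors. Cdk6, a kinase of G1, had 53.2, 32.8 and 49.7 CPM in Gpr115-KO, against 91.7, 66.9 and 63.3 CPM in WT. Ccnd2, encoding cyclin D2, had 1005, 1054 and 1244 CPM in Gpr115-KO, against 1326, 1663 and 1661 CPM in WT. In both genes Gpr115-KO lay wholly below WT, as in 8.99% of all genes. The fitted log2 differences were −0.71 ± 0.21 for Cdk6 and −0.49 ± 0.19 for Ccnd2 (SE), at edgeR adjusted p of 0.261 and 0.339. The libraries did not overlap in 3 of the 8 G1 cyclins and kinases, against 17.5% of all genes. Of these 8 genes, 3 had a fold change above 0 and 5 below, with a median log2 fold change of −0.089. Among them Cdk4, Ccnd3 and Ccnd1 had 0.12, 0.22 and −0.092.

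The inhibitor Cdkn2c, which blocks Cdk4 and Cdk6, had 4.22, 3.95 and 3.57 CPM in Gpr115-KO, against 1.45, 1.93 and 1.73 CPM in WT. Gpr115-KO lay wholly above WT, as in 8.55% of all genes, and the log2 fold change was 1.20 (edgeR SE 0.33, adjusted p = 0.234). Cdkn1c, an inhibitor of G1 kinases, had 0.41 (SE 0.19), and both inhibitors had an unadjusted p under 0.05 as 4.85% of all genes did in that direction. Of the 6 tested inhibitors, 3 had a fold change above 0 and 3 below. Cdkn1b had 0.40, while Cdkn2d, Cdkn2b and Cdkn1a had −0.32, −0.21 and −0.019. The repressor E2f7 rested on 3 to 6 counts in Gpr115-KO and 11 to 25 in WT, with a log2 fold change of −1.87 (edgeR SE 0.56, adjusted p = 0.259). Rbl2, a pocket protein of the DREAM complex, had −0.31 (SE 0.16).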

How the data were processed

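The authors deposited raw counts per gene, whole numbers for 48709 gene rows and 15 transgene rows, which took at most 8 counts in a library and were left out. Per the submitters' processing notes reads were aligned with STAR 2.5.2a to GRCm38 (mm10), with DESeq2, edgeR and limma also named; no counting tool is given in the sources used here. Per the labels' protocols cDNA libraries came from the Nextera XT kit, which does not mark strand. The deposited normalized table holds a signal, TMM-scaled CPM, as its name and values show: 100% of its values were whole reads (tolerance 0.01 reads), equal to the counts, when each column was divided by 1 factor. Depth was 8317302 to 11122821 counts per library.

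Counts were tested with edgeR 4.0.16 (R 4.3.3): filterByExpr (minimum count 10, minimum total 15), TMM, a robust quasi-likelihood fit with genotype as the only term, two-sided, Benjamini-Hochberg over 16011 genes, called at an adjusted p under 0.05. The fit was tested on simulated data. The SE is the absolute log2 fold change over the square root of F, and the 95% interval uses the fit's degrees of freedom. Libraries of 1 group differed by a chi-square per degree of freedom of at least 16.5, so none was counted as a repeat. Exonic lengths, overlaps and coordinates are from GENCODE vM21 (GRCm38), and copies were sought with blastn 2.17.0 at 95% identity over at least 150 nt. Motifs were counted once per gene. Values in every library are given for 6 usual proliferation markers, the 4 members of each phase with the smallest p and those at either end of the fold changes. From the other lists the 2 genes with the smallest p are named. Members and lists were chosen with earlier results of these data known. Alternatives were other scalings, filters and tests (DESeq2 1.42.0, limma 3.58.1), a replicate block, the length trend removed and each library left out.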

Additional observations from a re-analysis of the deposited data

How the results depend on the processing

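No member was called under any alternative, and the lowest adjusted p of any was 0.0684, for Tyms with no count filter. The sign of the fold change held in all 17 alternatives for 17 of 35 members and changed in at least 1 for the other 18. Over all genes 6 were called higher and 18 lower. The counts were 135 higher and 365 lower with no count filter, 65 and 184 with the DESeq2 Wald test, 16 and 35 at an adjusted p under 0.1, and 11 lower on library totals alone. Leaving out 1 library gave 5 to 10 higher and 7 to 39 lower genes. With the replicate number as a block 18 were higher and 54 lower; same-numbered libraries had correlations of 0.32, 0.038 and −0.070 across 14215 genes, so the numbers were not taken to pair the libraries, and not every library correlated best with its own number.

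The median log2 fold change ran from −0.14 to 0.073 for the S-phase members and from −0.18 to 0.081 for the mitosis members when 1 library was left out, and their difference from −0.076 to 0.11. That of the other S-phase genes ran from −0.21 to 0.0046, of the other mitosis genes from −0.25 to 7.6e-05, of the G1 cyclins and kinases from −0.14 to −0.051 and of the inhibitors from 0.026 to 0.23. On library totals alone the median was −0.064 for the transcription factors and −0.0063 for the G1 cyclins and kinases, and with no count filter it was −0.023 for the inhibitors. The cause was not tested. The alternatives with recovered reads and without members that overlap another gene were added after seeing the data; without the overlapping members the difference between the phases was 0.12. Counts of 14 to 75 for genes such as Plk1 and Cdc6 limit the precision of their fold changes.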
